A study of Mus musculus with 12 samples.

Results

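Neural progenitor cells (NPCs) change their transcripts when they sit on endothelial cells, and the question here was how far that change depends on p53. The quantity described is the difference of 2 co-culture effects: the log2 fold change of co-culture over NPCs alone in p53-/- cells minus the same fold change in p53+/+ cells. It was computed for every gene that could be tested, 13745 of 24108 listed, in all 12 RNA-seq libraries of the series. A value above 0 means a larger rise or a smaller fall in p53-/- NPCs, and a value below 0 means a smaller rise or a larger fall. Genes were left out only for low counts.

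The NPCs were isolated from the subventricular zone (SVZ) of C57BL/6 mouse pups, a niche in which neural stem cells lie against blood vessels. Wild type (p53+/+) and p53-/- NPCs were each sequenced after culture alone and after co-culture, which gave 4 groups of 3 libraries. Cells alone grew on laminin, and co-cultured cells spent 48 h on a monolayer of bought primary mouse brain microvascular endothelial cells (bmvECs) of the same strain before they were lifted off by brief trypsin. The p53-/- NPCs were p53loxP/loxP cells in which an adenovirus carrying Cre under the CMV promoter had removed p53 in culture. The study's methods name a virus with the CMV promoter and no Cre as the control, and the labels of the p53+/+ libraries say only that they were wild type. Each group held 1 library from each of the experiments 17_9, 25_9 and 1_10, and libraries with the same experiment number were paired. Nothing in the labels says whether the 3 experiments used separate animals. The p-values measure how differences between groups vary from experiment to experiment, after shifts shared by an experiment are taken out. This variation may be technical.

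p53 is a transcription factor that stress stabilizes. It activates genes such as Cdkn1a, whose product p21 inhibits cyclin-dependent kinases, and through p21 and the DREAM complex it lowers genes of the cell cycle. Contact with endothelial cells is known to hold SVZ progenitors in a quiescent, astrocyte-like state. Interferon-stimulated genes are a separate set of antiviral effectors, switched on by interferon signalling at a DNA element called the ISRE.

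Libraries held 16509710 to 22245224 counts. The labels were checked first at the targeted gene. Trp53, counted over the whole gene, stood at 80.3, 96.6 and 109 CPM (counts scaled to the library's size) in p53+/+ NPCs alone in experiments 17_9, 25_9 and 1_10, and at 61.8, 65.9 and 78.8 CPM in co-culture. The p53-/- libraries held 11.7, 14.7 and 17.4 CPM alone and 18.4, 19.3 and 13.7 CPM in co-culture, so that every p53-/- library lay below every p53+/+ library. Co-culture libraries also held endothelial transcripts. Cdh5, which encodes VE-cadherin and defines endothelial cells, was at 0 to 0.0993 CPM in the 6 libraries alone, at 20.0 to 37.2 CPM in p53+/+ co-cultures and at 18.8 to 25 CPM in p53-/- co-cultures. The summed level of 36 endothelial genes was 351 to 509 CPM in both genotypes alone, 671 to 895 CPM in p53+/+ co-culture and 596 to 690 CPM in p53-/- co-culture. This sum is not a measure of endothelial content, because it includes genes that NPCs alone also express. Over the p53+/+ libraries, S1pr1 held 11938 reads alone and 24295 in co-culture, and Slc2a1 held 4586 and 4540. Of the 31 endothelial genes that could be tested, 27 were called higher in co-culture in p53+/+ (against 26.2% of all genes) and 25 in p53-/- (against 24.3%). None was called in the difference of the effects, where their median was -0.17. The part of these endothelial transcripts in the results below was not tested.

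The co-culture effect was broadly shared by the genotypes. In p53+/+ NPCs 3604 genes were called higher and 3319 lower at an adjusted p under 0.05, and in p53-/- NPCs 3335 and 3192. Both genotypes called 2658 genes higher and 2329 lower. The difference of the effects passed the same threshold for 11 genes, which is 0.08% of those tested: 3 were higher and 8 lower. Without adjustment, 1870 genes (13.6%) stood at a p under 0.05, 1065 of them higher (7.75%) and 805 lower (5.86%). The 12 libraries bounded the difference well for most genes: 10147 of the 13745 (73.8%) had a 95% interval that lay wholly between -1 and 1 on the log2 scale, and the median standard error was 0.201. The number of calls depended on the test, since DESeq2 with the same pairing called 205 genes higher and 70 lower, and a fit without the pairing called 0 higher and 5 lower.

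**Figure D1:**
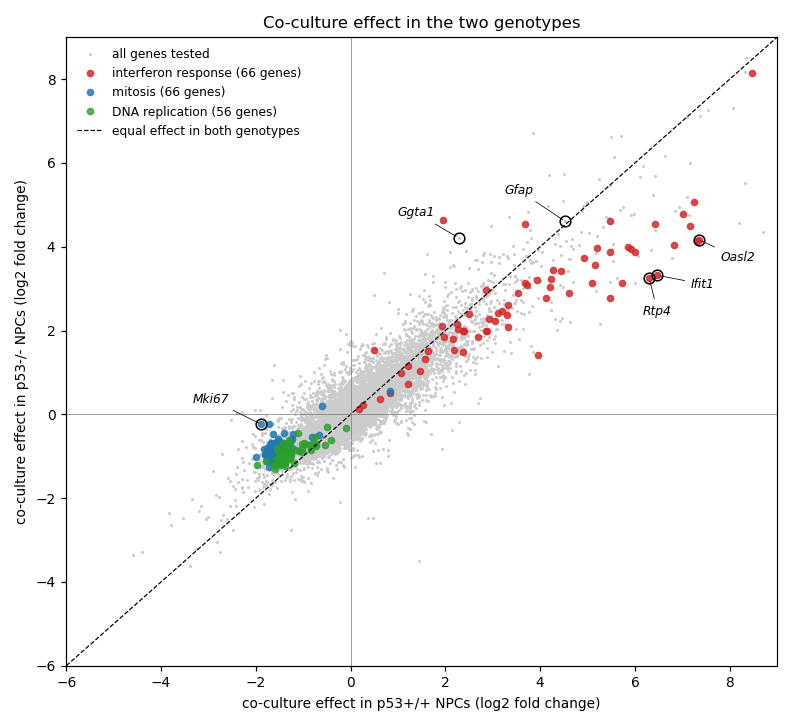
Each point is a gene, with the log2 fold change of co-culture over NPCs alone in p53+/+ NPCs on the x axis and in p53-/- NPCs on the y axis; grey points are all genes tested and coloured points are 3 gene lists, and 6 genes fall outside the axes. Interferon-response genes lie to the right of the dashed line of equal effect, with medians of 3.42 in p53+/+ and 2.79 in p53-/-, and genes of mitosis and DNA replication lie above it on the side where both genotypes fell.

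Interferon-stimulated genes made up most of the calls below 0. The genes called were Rtp4, Isg15, Ifit1, Trim47, Oasl2, Xaf1, I830012O16Rik and Oasl1, and all but Trim47 belong to the interferon-response list. Co-culture raised 7 of them in both genotypes, by less in p53-/- NPCs, and raised Trim47 in p53+/+ NPCs, with an effect of 0.39 ± 0.19 (SE) in p53-/- that was not called. These 8 genes were compared between the genotypes in each culture. They were selected on the difference, which uses these same libraries, so the comparisons describe where it lies and lend it no separate support. The shares of all genes beside them are of unselected genes. All 8 had their 3 p53-/- libraries above their 3 p53+/+ libraries alone, as did 15% of all genes, whereas in co-culture the libraries of the genotypes overlapped for 6 of them. Xaf1 and I830012O16Rik were the other 2, lower in every p53-/- co-culture, as were 16.9% of all genes.

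Rtp4, a chaperone of cell-surface receptors that interferon induces, stood at 1.00, 1.24 and 0.814 CPM in p53+/+ NPCs alone and at 5.47, 11.7 and 7.49 CPM in p53-/- NPCs alone. In co-culture it reached 80.7, 76.9 and 81.7 CPM in p53+/+ and 73.6, 73.6 and 84.4 CPM in p53-/-. The genotypes were separate alone and overlapped in co-culture, and the co-culture effects were 6.30 ± 0.25 and 3.25 ± 0.20, a difference of -3.05 ± 0.32 (log2, SE, edgeR adjusted p = 0.00429). Isg15 encodes a ubiquitin-like protein that is conjugated to other proteins in infected cells. Its level alone was 0.875, 1.24 and 0.559 CPM in p53+/+ against 6.20, 8.70 and 2.83 CPM in p53-/-. In co-culture the values were 36.1, 46.7 and 33.6 CPM against 41.2, 50.5 and 27.7 CPM, which overlap, and the difference of the effects was -2.69 ± 0.30 (edgeR adjusted p = 0.00429).

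Ifit1, whose product binds viral RNA and blocks its translation, was measured at 2.31, 1.14 and 0.661 CPM in p53+/+ NPCs alone and at 11, 14.9 and 6.6 CPM in p53-/- NPCs alone. Co-culture raised it to 128, 112 and 107 CPM and to 116, 108 and 93.0 CPM. Again only the cells alone were separated, and the difference was -3.15 ± 0.35 (edgeR adjusted p = 0.00429). Oasl2, a relative of the 2'-5' oligoadenylate synthetases that sense double-stranded RNA, had the largest difference in size among the 11 calls at -3.19 ± 0.42 (edgeR adjusted p = 0.0159), from 0.865 to 1.89 CPM in p53+/+ alone and 7.56 to 16.9 CPM in p53-/- alone. Its paralog Oasl1 was at 0.875, 0.497 and 0.153 CPM in p53+/+ NPCs alone, the last of these being 3 reads, and at 5.18, 5.60 and 2.22 CPM in p53-/- alone, with a difference of -2.54 ± 0.41. The remaining calls on this side were Xaf1, a partner of the apoptosis inhibitor XIAP (-1.97 ± 0.29), and I830012O16Rik (-2.24 ± 0.34), now named Ifit3b. Ifit3b is a near copy of its neighbour Ifit3, so how reads were split between them is uncertain. Read counts of the 8 genes in the p53+/+ libraries alone ranged from 3 to 60, so the lower end of each rise rests on few reads.

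Trim47, a ubiquitin ligase of the tripartite motif family, was the exception in pattern. It was measured at 2.00, 1.19 and 1.32 CPM in p53+/+ alone and 8.83, 11.9 and 8.85 CPM in p53+/+ co-culture. The p53-/- libraries held 6.93, 6.28 and 5.60 CPM alone and 10.0, 8.24 and 6.56 CPM in co-culture. The p53-/- cultures overlapped with each other, and the difference of the effects was -2.34 ± 0.29 (edgeR adjusted p = 0.00918).

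**Figure D2:**
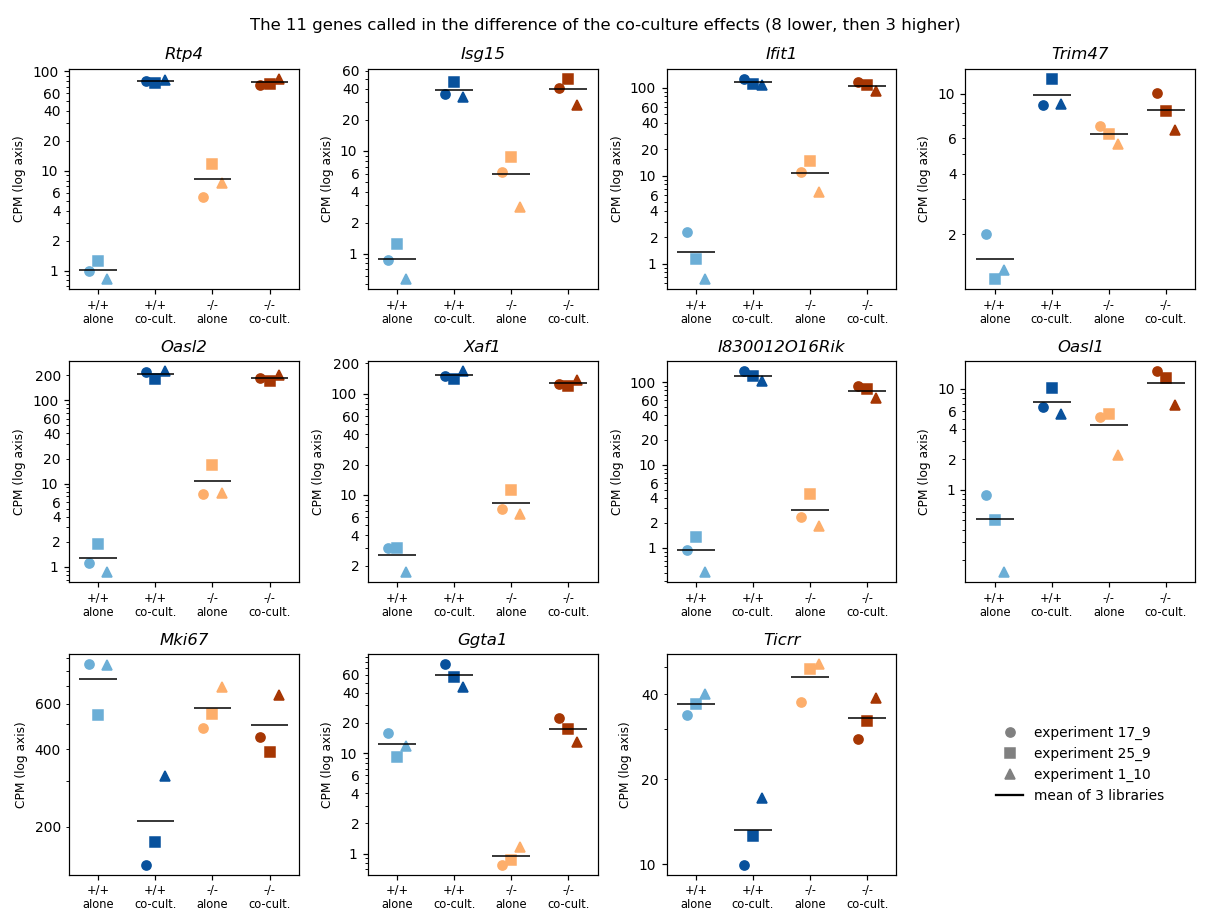
Each panel plots 1 of the 11 called genes in CPM on a log axis, with the 4 groups on the x axis, 1 symbol for each of the 3 experiments and a bar at the mean of the 3 libraries. In the 8 genes called lower the p53-/- libraries alone sit above the p53+/+ libraries alone while in co-culture the genotypes overlap in 6 of them and Xaf1 and I830012O16Rik are lower in p53-/-, and Mki67 and Ticrr show the reverse, with p53+/+ co-culture apart from the other groups.

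The rest of the interferon-response list lay on the same side. Of 66 members tested, 61 had a difference below 0 (against 52.6% of all genes), and 49 were below 0 in each of the 3 experiments (against 27%). At an unadjusted p under 0.05, 41 stood on that side (against 5.86%) and 1 on the other (against 7.75%). The list's median was -0.82 against -0.02 over all genes, and 7 members were called (against 0.0582%). Co-culture raised 63 members in p53+/+ (against 26.2% of all genes) and 62 in p53-/- (against 24.3%), and lowered none. Comparing genotypes directly, 31 of the 66 were higher in p53-/- NPCs alone (against 7.25% of all genes) and 2 lower (against 9.33%), while in co-culture 2 were higher (against 9.99%) and 6 lower (against 10.9%, near the share of this list). Fewer cells that express such a gene and less RNA per cell cannot be told apart in bulk libraries.

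Next in order on this side, and not called, came Ifi44 (-2.78 ± 0.50), Rsad2 (-1.71 ± 0.32), Ifit3 (-1.88 ± 0.35) and the ISG15 protease Usp18 (-2.12 ± 0.41), all with an edgeR adjusted p of 0.0888. Bst2 encodes tetherin, which holds budding virus at the membrane, and had -0.98 ± 0.19. The RNA sensor Ifih1 had -1.23 ± 0.25 and Ifi27 had -0.92 ± 0.19. Rsad2, which encodes the antiviral enzyme viperin, was unlike the called genes in co-culture, where p53-/- libraries at 165, 132 and 111 CPM lay above p53+/+ libraries at 76.7, 61 and 74.5 CPM. The 5 members above 0 were picked out after their values were seen. They were Parp14 (0.12 ± 0.23), Gbp7 (0.18 ± 0.23), and the weakly expressed Sp100, Mnda and Ifi203, whose mean log2 CPM lay between -1.64 and -0.54. The largest difference above 0 in the list, 2.70, was among these weakly expressed genes. Antigen-presentation genes, many of them also interferon targets, had a median of -0.30 and none was called. At an unadjusted p under 0.05, 7 of 18 stood below 0 (38.9%, against 5.86%) and 1 above (5.56%, against 7.75%). H2-K1, a classical MHC class I heavy chain, had -0.61 ± 0.17 and the light chain B2m -0.15 ± 0.15.

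Since members of the list moved together, their promoters were searched for the core of the ISRE, written as GAAA, any 2 bases and GAAA, and counted on either strand in the 250 bases before and 50 after the start site (RefSeq, GRCm38.p6). Of 51 interferon-response members with a window, 28 (54.9%) held it, against 388 of 10906 windows of all tested genes (3.56%). The list was chosen as interferon-stimulated genes, so this share describes the list and says nothing of the dependence on p53. Of the 8 genes called lower, 7 had a window and 3 held the letters (42.9%), no larger a share than in the list. The stretches of 200 bases before the start site are shown for those 3 and for Rsad2, with the matches in capitals, because they show the element's copies and their spacing in genes on which the result turns. Isg15 (chr4:156200819-156201018, minus strand) has 3 overlapping forward matches, and Ifit1 (chr19:34640689-34640888, plus strand) and I830012O16Rik (chr19:34607757-34607956, plus strand) have 2 each, read on the opposite strand and identical in letters. Rsad2 (chr12:26456453-26456652, minus strand) has 1, also on the opposite strand.
Isg15: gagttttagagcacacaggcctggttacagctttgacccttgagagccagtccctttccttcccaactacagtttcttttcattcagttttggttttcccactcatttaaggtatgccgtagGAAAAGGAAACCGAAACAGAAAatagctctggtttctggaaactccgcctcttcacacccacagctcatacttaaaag
Ifit1: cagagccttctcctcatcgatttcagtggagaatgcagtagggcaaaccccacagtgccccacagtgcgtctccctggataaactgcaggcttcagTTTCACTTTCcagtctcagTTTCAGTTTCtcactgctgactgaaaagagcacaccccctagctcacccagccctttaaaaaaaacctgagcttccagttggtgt
I830012O16Rik: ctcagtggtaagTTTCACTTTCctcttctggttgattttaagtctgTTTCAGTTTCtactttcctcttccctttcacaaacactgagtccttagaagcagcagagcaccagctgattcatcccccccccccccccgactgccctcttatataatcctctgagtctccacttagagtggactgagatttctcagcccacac
Rsad2: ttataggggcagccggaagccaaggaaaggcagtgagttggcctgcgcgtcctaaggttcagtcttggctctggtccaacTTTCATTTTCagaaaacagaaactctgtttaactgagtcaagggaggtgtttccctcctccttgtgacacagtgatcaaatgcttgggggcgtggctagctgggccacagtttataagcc
Trim47, Oasl2, Xaf1 and Oasl1 have no match in their windows, which says only that these letters are not there.

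On the other side, genes of cell division fell less in p53-/- NPCs. The genes called higher were Mki67, Ticrr and Ggta1, of which only Mki67 is in the mitosis or the DNA-replication list. Mki67 encodes the Ki-67 protein that coats mitotic chromosomes and marks dividing cells. It stood at 855, 543 and 843 CPM in p53+/+ NPCs alone and fell to 143, 175 and 314 CPM in co-culture. The p53-/- values were 484, 545 and 693 CPM alone and 444, 391 and 650 CPM in co-culture, so the p53-/- cultures overlapped and every p53-/- co-culture lay above every p53+/+ co-culture. The co-culture effect was -1.88 ± 0.18 in p53+/+ and -0.24 ± 0.18 in p53-/-, with a difference of 1.64 ± 0.25 (log2, SE, edgeR adjusted p = 0.0468).

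Ticrr, which encodes the replication-origin activator treslin, had the same form. Its levels were 33.8, 36.8 and 40.1 CPM in p53+/+ alone, 9.97, 12.6 and 17.2 CPM in p53+/+ co-culture, 37.5, 49.2 and 51.2 CPM in p53-/- alone and 27.6, 32.1 and 38.9 CPM in p53-/- co-culture. It fell in both genotypes, by 1.5 and by 0.49 on the log2 scale, and the difference was 1.02 ± 0.16 (edgeR adjusted p = 0.0493). Genotypes overlapped alone and were separate in co-culture, where p53-/- lay above p53+/+ for Mki67 and Ticrr (against 14.4% of all genes). Ggta1, a galactosyltransferase that builds the alpha-gal sugar on glycoproteins, differed in another way. All its p53-/- libraries were below the p53+/+ libraries in both cultures (against 12.4% of genes alone and 16.9% in co-culture). Alone they held 0.775, 0.865 and 1.17 CPM against 15.9, 9.24 and 11.7 CPM. In co-culture they held 22.3, 17.5 and 12.7 CPM against 77.3, 57.4 and 45.2 CPM. The rise of Ggta1 was 4.21 ± 0.24 in p53-/- and 2.28 ± 0.18 in p53+/+, a difference of 1.93 ± 0.30 (edgeR adjusted p = 0.0493). Genes called higher were selected on the difference too, so these comparisons of their libraries describe where it lies.

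The mitosis list carried this pattern through nearly all of its genes. Of 66 members, 65 had a difference above 0, in each case in all 3 experiments (against 23.8% of all genes), and 56 stood at an unadjusted p under 0.05 above 0 (against 7.75%) with 0 below. The median was 0.74, with the middle 50% of members between 0.60 and 0.89. Mki67 was the 1 member called (against 0.0218%), and DESeq2 with the same pairing called 28. Co-culture lowered 65 members in p53+/+ (against 24.1% of all genes) with a list median of -1.60, and 62 in p53-/- (against 23.2%) with a median of -0.81. Between genotypes, 65 of the 66 were called higher in p53-/- co-cultures (against 9.99% of all genes), and 8 in p53-/- NPCs alone (against 7.25%). By the libraries themselves, 64 had all p53-/- co-cultures above all p53+/+ co-cultures (against 14.4%), and 27 had all p53-/- libraries alone above all p53+/+ libraries alone (against 15%). The exception, Pttg1, which encodes the separase inhibitor securin, was singled out after its value was seen: it rose by 0.82 ± 0.10 in p53+/+ and 0.55 ± 0.10 in p53-/-, with a difference of -0.27 ± 0.14.

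Single genes show the size of these differences. Top2a, the topoisomerase that untangles chromosomes before mitosis, was at 1065, 711 and 833 CPM in p53+/+ alone and 221, 246 and 374 CPM in co-culture. In p53-/- NPCs it was at 865, 823 and 1070 CPM and at 437, 524 and 796 CPM. All p53-/- co-cultures were above all p53+/+ co-cultures, and the difference of the effects was 1.00 ± 0.26, which was not called (edgeR adjusted p = 0.158). Division genes in and outside the list that came next in order, none called and all with an edgeR adjusted p of 0.0888, were the spindle-checkpoint kinase Bub1b (0.90 ± 0.17), the kinetochore proteins Cenpf (1.51 ± 0.26) and Casc5 (1.43 ± 0.27), the spindle-pole protein Aspm (1.42 ± 0.26), the cytokinesis linker Gas2l3 (1.13 ± 0.20) and the DNA-crosslink repair gene Fanci (1.08 ± 0.20). In Aspm, as in Mki67, co-culture left p53-/- cells near their level alone, at 96.3, 98.6 and 151 CPM against 96.5, 124 and 155 CPM.

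DNA-replication genes moved the same way by less. Of 56, 51 had a difference above 0 (against 47.4% of all genes), and none was called. At an unadjusted p under 0.05, 16 stood above 0 (28.6%, against 7.75%) and 0 below (against 5.86%). Their median was 0.32, from co-culture medians of -1.32 in p53+/+ and -0.92 in p53-/-. All 56 were called lower in p53-/- co-culture (against 23.2% of all genes) and 55 in p53+/+ (against 24.1%), and 46 were higher in p53-/- than in p53+/+ co-cultures (against 9.99%). The helicase subunits Mcm2 (0.52 ± 0.21) and Mcm7 (0.37 ± 0.16) and the sliding clamp Pcna (0.38 ± 0.24) lay close to the list's median. The 33 CDK inhibitors, cyclins and pocket proteins had a median of 0.25. At an unadjusted p under 0.05, 8 of them stood above 0 (24.2%, against 7.75%) and none below (against 5.86%).

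**Figure D3:**
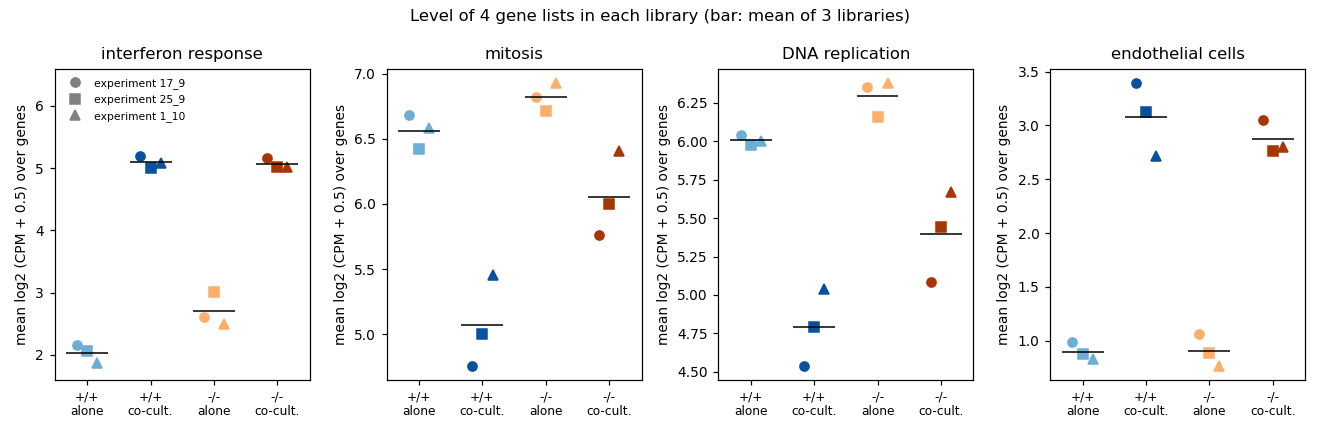
Each point is the mean log2 (CPM + 0.5) over the tested genes of a list in 1 library, with the 4 groups on the x axis, a symbol for each experiment and a bar at the mean of 3. Interferon-response genes differ between the genotypes alone (1.87 to 2.16 in p53+/+, 2.49 to 3.01 in p53-/-) and meet in co-culture (5.0 to 5.19 and 5.01 to 5.17), whereas mitosis genes are closer alone (6.42 to 6.68 and 6.71 to 6.93) than in co-culture (4.76 to 5.45 and 5.76 to 6.40); endothelial genes rise in both.

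Genes of the mitosis list were also searched for the CHR element, TTTGAA on either strand, through which the DREAM complex acts. It was in the windows of 34 of 54 members (63%), against 1526 of 10906 windows of all tested genes (14%). CCAAT boxes, which often accompany it, were in 38 of the 54 (70.4%) against 43.2%. For DNA replication the CHR was in 10 of 47 windows (21.3%). These shares describe lists chosen as cell-cycle genes, not the difference between the genotypes. Whether DREAM or p21 has a part in that difference was not tested. The promoters of Mki67 and Cenpf, and of Aspm, which is outside the list and was picked after its match was seen, are shown with CHR matches in capitals, to show where the letters lie relative to the start site. Mki67 (chr7:135716380-135716579, minus strand, 200 bases before the start site) has 2 forward matches beginning 116 and 98 bases before it. Cenpf (chr1:189688057-189688206, minus strand) and Aspm (chr1:139454653-139454802, plus strand), each from 120 bases before to 30 after the start site, have 1 forward match each, at bases 3 and 7 of the transcript.
Mki67: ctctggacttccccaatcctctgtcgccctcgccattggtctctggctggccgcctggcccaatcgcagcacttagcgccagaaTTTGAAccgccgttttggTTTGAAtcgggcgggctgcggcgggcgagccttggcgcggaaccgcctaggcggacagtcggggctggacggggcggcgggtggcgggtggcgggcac
Cenpf: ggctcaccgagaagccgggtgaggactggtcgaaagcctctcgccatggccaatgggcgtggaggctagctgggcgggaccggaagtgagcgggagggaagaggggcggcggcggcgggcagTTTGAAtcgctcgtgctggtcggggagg
Aspm: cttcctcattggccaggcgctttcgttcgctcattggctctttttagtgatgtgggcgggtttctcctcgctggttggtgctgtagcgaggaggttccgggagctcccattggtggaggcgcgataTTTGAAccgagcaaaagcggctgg
Ticrr, Gas2l3 and Fanci have no CHR match in their windows.

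Transcript length moved with the difference of the effects, and is given here because several division genes are long. Over 13636 tested genes with a length (that of the longest GENCODE M21 transcript), Spearman's rho between length and difference was 0.44, a description across genes that share the same 12 libraries. The median difference was -0.24 in 551 genes of up to 1 kb, -0.04 in 2799 genes of 3 to 4 kb and 0.54 in 369 genes over 10 kb. In those 369, 52.6% stood at an unadjusted p under 0.05 above 0 (against 7.75% of all genes) and 0.542% below (against 5.86%). The relation was steepest in experiment 17_9, where the median of genes over 10 kb was 0.95, against 0.28 in 25_9 and 0.31 in 1_10. Of the 11 genes that co-culture moved in opposite directions in the genotypes, each called in both, 6 have a transcript over 10 kb, among them the giant cadherins Fat1, Fat3 and Fat4. These were named after their values were seen, and none of the 11 was called in the difference.

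The lists were measured again with that trend taken out of each library, an alternative chosen after seeing the data. The mitosis median was then 0.77, with 59 of 66 members above 0 at an unadjusted p under 0.05 (against 4.99% of all genes). The DNA-replication median was 0.42. The interferon-response median was -0.75, with 35 of 66 below 0 at an unadjusted p under 0.05 (against 4.63%). Within the mitosis list, 23 members under 3 kb had a median of 0.67 and 43 longer ones 0.80, while interferon-response members had -0.95 under 3 kb and -0.69 above. The calls were fewer, with 0 genes higher and 5 lower, the 5 being Ifit1, Trim47, Rtp4, Isg15 and Oasl2. Mki67, with a transcript of 10061 bases, had 1.25 in place of 1.64 and was not called (edgeR adjusted p = 0.134). Ticrr had 0.78 and Ggta1 1.95, also not called. Without experiment 17_9, the steepest, 105 genes were called higher and 58 lower, and these included all 11. Of the mitosis list 32 were then called higher, and of the interferon-response list 23 of 64 lower.

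**Figure D4:**
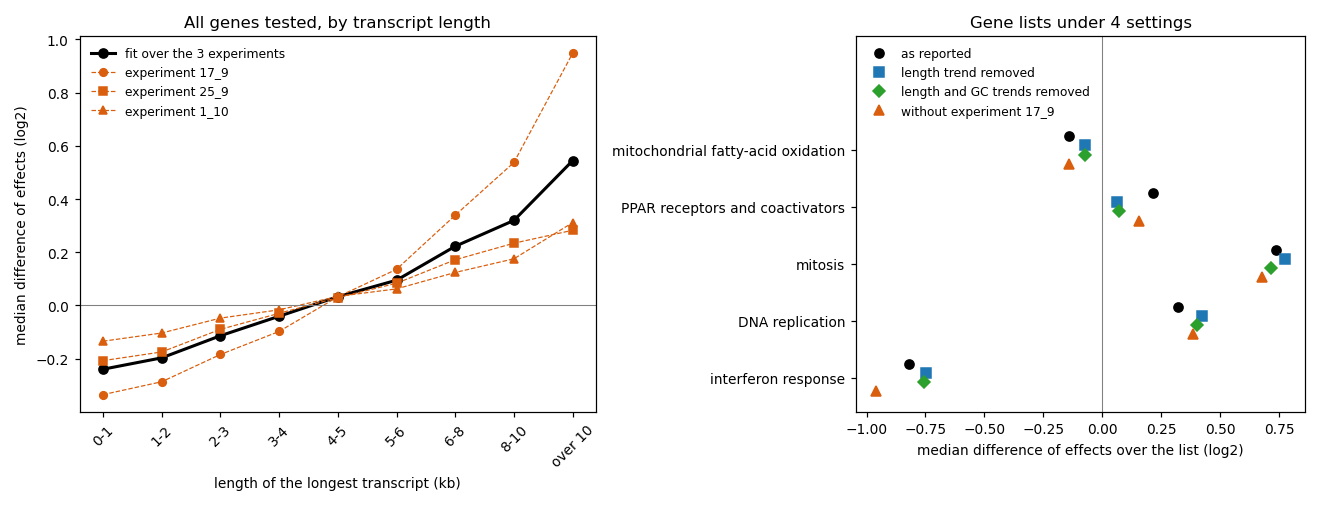
On the left, the median difference of the co-culture effects (log2, y axis) is plotted for genes in 9 classes of transcript length in kb (x axis), for the fit and for each experiment, and rises from -0.24 in the shortest class to 0.54 in the longest. On the right, the median over each of 5 gene lists is plotted as reported, with the length trend or the length and GC trends removed, and without experiment 17_9; the mitosis list stays between 0.68 and 0.77 and the interferon-response list between -0.96 and -0.75.

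No further gene was called. Among genes that did not pass but came next in order above 0, the glutamate-receptor subunit Gria1 rose in both genotypes from different starting levels, 28.2, 45.3 and 51.2 CPM alone in p53+/+ and 6.93, 14.1 and 13.2 CPM in p53-/-, to 114, 126 and 140 CPM and 71, 78.8 and 86.1 CPM, with a difference of 1.18 ± 0.22. Cdh6, a cadherin, had 1.09 ± 0.20, and Fndc1, a fibronectin-domain protein, had 1.66 ± 0.30. For the lipoprotein and reelin receptor Vldlr the difference was 0.89 ± 0.17. The longest transcripts of Gria1, Cdh6, Fndc1 and Vldlr have 5546, 8167, 5845 and 7971 bases, against a median of 3468.5 over all genes. The part of length in their values was not tested. Below 0 were 2 genes of redox metabolism. G6pdx, the first enzyme of the pentose phosphate pathway, was at 144, 137 and 158 CPM alone and 285, 264 and 253 CPM in co-culture in p53+/+. The p53-/- libraries held 140, 138 and 168 CPM alone and 169, 158 and 158 CPM in co-culture. Only the p53+/+ co-cultures stood apart, and the difference was -0.75 ± 0.14 (edgeR adjusted p = 0.0888). Srxn1, which encodes the peroxiredoxin-repair enzyme sulfiredoxin, had -0.97 ± 0.19 and the annexin Anxa7 -0.81 ± 0.17.

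Direct p53 targets were lower without p53 in both cultures. Of 49 tested, 39 were lower in p53-/- NPCs alone (against 9.33% of all genes) and 37 in co-culture (against 10.9%), with a median effect of p53 loss of -1.44 alone and -1.21 in co-culture. None was called in the difference, where the median was 0.23. Of the 49, 36 lay above 0 (against 47.4% of all genes) and 23 of these did so in all 3 experiments (against 23.8%). At an unadjusted p under 0.05, 10 stood above 0 (against 7.75%) and 2 below (against 5.86%). Cdkn1a stood at 458, 350 and 408 CPM in p53+/+ alone and 389, 371 and 398 CPM in co-culture. The p53-/- libraries held 9.84, 4.74 and 31.2 CPM alone and 21.7, 17.2 and 14.5 CPM in co-culture. Its difference of 0.46 ± 0.57 has a 95% interval from -0.77 to 1.70, so a difference of 1 on the log2 scale was not detectable for it, and without experiment 17_9 it was -0.038. Mdm2, the ubiquitin ligase that degrades p53, had 0.04 ± 0.19 and the cyclin Ccng1 0.23 ± 0.35.

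Fatty-acid oxidation, which quiescent neural stem cells are known to use, was the group with the tightest bound. All 34 tested genes of mitochondrial fatty-acid oxidation had a 95% interval within -1 and 1 (against 73.8% of all genes), and their values ran from -0.46 to 0.45 with a median of -0.14, which went to -0.07 once the length trend was removed. Of these genes 19 lay below 0 in all 3 experiments (against 27%). At an unadjusted p under 0.05, 3 stood below 0 (8.82%, near the 5.86% of all genes) and 0 above (against 7.75%). Co-culture raised 24 of them in p53+/+ (against 26.2%) and 21 in p53-/- (against 24.3%). The carnitine transferase Cpt1a had 0.03 ± 0.14, and Acadm and Hadha, which carry out steps of the cycle, -0.24 ± 0.14 and 0.01 ± 0.12. Cpt1c, a brain isoform of the transferase, was at 121, 127 and 109 CPM in p53+/+ alone and 202, 221 and 173 CPM in co-culture, and at 30.1, 38.3 and 36.3 CPM and 72.6, 69.7 and 58.3 CPM in p53-/-. It was lower without p53 in every pair of libraries, and co-culture raised it by 0.74 ± 0.11 and 0.93 ± 0.11, with a difference of 0.20 ± 0.16 and an interval from -0.14 to 0.54.

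PPAR receptors and coactivators drive genes of fatty-acid use. At an unadjusted p under 0.05, 5 of these 26 stood above 0 (19.2%, against 7.75% of all genes) and 0 below (against 5.86%). Their median of 0.22 went to 0.06 once the length trend was removed. The coactivator Ppargc1a was at 99.2, 70.3 and 75.3 CPM in p53+/+ alone and 42.4, 49.5 and 57.9 CPM in p53-/- alone, and at 112, 83.5 and 103 CPM and 108, 77.1 and 93.5 CPM in co-culture. It was separate between genotypes alone, with p53-/- lower (as in 12.4% of all genes), and overlapped in co-culture. Its difference of 0.59 ± 0.20 was not called (edgeR adjusted p = 0.251). Without experiment 17_9 the difference of Ppargc1a was 0.32. Its transcript has 6464 bases, and genes of 6 to 8 kb had a median difference of 0.22. Ppara had 0.27 ± 0.35 and Ppard -0.16 ± 0.16. At an unadjusted p under 0.05, 8 of 45 PPARalpha targets stood below 0 (17.8%, against 5.86%) and 1 above (2.22%, against 7.75%). The PPARalpha targets had a median of -0.18, which went to -0.08 once the length trend was removed. With it removed, 7 of the 45 (15.6%, against 4.63%) still stood below 0 at that threshold and 1 above (2.22%, against 4.99%). Among the PPARalpha targets Pdk4, a brake on glucose oxidation, rose by 1.69 in p53+/+ and 2.14 in p53-/- on the log2 scale. Genes of fatty-acid synthesis and lipid droplets had a median of -0.24 with 10 of 40 (25%) below 0 at an unadjusted p under 0.05 (against 5.86%). With the length trend removed, these were -0.23 and 15 of 40 (37.5%, against 4.63%), with 0 above. Genes of cholesterol synthesis had a median of -0.27 without that removal, with 8 of 24 (33.3%) below 0 at that threshold. The cholesterol value rests on experiment 17_9, where the median was -0.69 against -0.08 in 25_9 and 0.04 in 1_10. Apart from cholesterol synthesis, these lipid lists share members with other lists, so their counts are not fully separate. Of the PPARalpha targets 22 of 45 were also in another list, as were 13 of 34 fatty-acid oxidation and 11 of 40 synthesis genes.

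The astroglial state rose in both genotypes. Gfap, the intermediate filament of astrocytes and type-B stem cells, went from 656, 602 and 411 CPM to 15065, 15515 and 8652 CPM in p53+/+ and from 264, 414 and 197 CPM to 8006, 8209 and 4853 CPM in p53-/-. These are rises of 4.53 and 4.6 on the log2 scale, and their difference of 0.07 ± 0.19 has an interval from -0.35 to 0.49. Among 51 astroglial and type-B genes, 37 were called higher in p53+/+ co-cultures (against 26.2% of all genes) and 34 in p53-/- ones (against 24.3%). None was called in the difference, where the median was -0.17, 8 stood below 0 at an unadjusted p under 0.05 (against 5.86%) and 2 above (against 7.75%), and 22 lay below 0 in all 3 experiments (against 27%). In co-culture 22 were lower without p53 (against 10.9%). Aldoc, an aldolase of astrocytes, had -0.85 ± 0.22 and the water channel Aqp4 0.16 ± 0.25. The 31 genes of active stem cells and neuroblasts had a median of 0.19. Of these 24 lay above 0 (against 47.4% of all genes) and 7 below, and none was called. At an unadjusted p under 0.05, 3 stood above 0 (9.68%, against 7.75%) and 1 below (3.23%, against 5.86%). In co-culture 13 were called higher without p53 (against 9.99%) and 1 lower (against 10.9%). Egfr, the receptor that marks activated stem cells, had 0.74 ± 0.20, and Dlx2, a homeobox factor of neuroblasts, had -0.17 ± 0.24. Notch1 had 0.59 ± 0.17 and Notch2 1.03 ± 0.21, both receptors of the pathway, and neither was called, while the Notch list as a whole had a median of 0.01. Within the Notch list the difference also rose with transcript length (Spearman's rho of 0.35), and the part of length in these values was not tested.

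**Figure D5:**
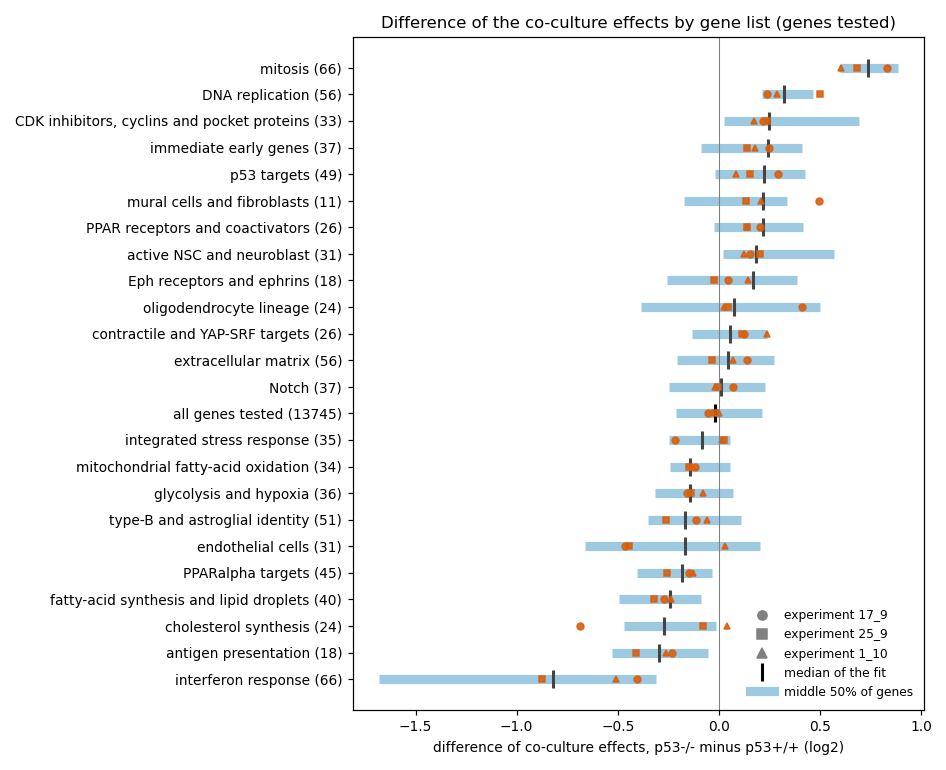
For each gene list (number of genes tested in brackets), a bar spans the middle 50% of the differences of the co-culture effects (log2, x axis), a tick marks the median of the fit and symbols mark the medians within each experiment. Mitosis lies at 0.74 and the interferon response at -0.82 at the ends of the order, with all genes at -0.02; the medians within an experiment are from log2 (CPM + 0.5).

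The remaining lists had medians between -0.14 and 0.24, and no member was called. They covered the oligodendrocyte lineage (0.07), extracellular matrix (0.05), Eph receptors and ephrins (0.17), immediate early genes (0.24), glycolysis and hypoxia (-0.14), the integrated stress response (-0.08), mural cells (0.22) and contractile genes driven by YAP and SRF (0.06). Several of these medians turned in sign when a library or an experiment was left out, so no direction is read from them. Immediate early genes ran from -0.42, without the p53+/+ library alone of 17_9, to 0.66, mural cells from -0.32 to 0.31 and contractile genes from -0.32 to 0.71, both lowest without the p53+/+ co-culture of 17_9. The others that turned were the oligodendrocyte lineage, from -0.09 to 0.25, extracellular matrix, from -0.01 to 0.21, and the integrated stress response, from -0.14 to 0.0032. Extracellular matrix was -0.09 with the length trend removed. Contractile genes varied between experiments, with the matricellular gene Ctgf at 533 CPM in p53+/+ NPCs alone in 17_9 and at 22.2 and 8.59 CPM in the others. The 95% interval of Ctgf ran from -3.91 to 3.46 and that of Acta2 from -2.24 to 2.26. Of 20 microglial genes 3 could be tested, and 16 stayed below 1 CPM in every library. The reference genes Gapdh and Hprt had -0.22 ± 0.17 and 0.44 ± 0.29. Actb had -0.10 ± 0.22, which turned to 0.055 once the length trend was removed. Tbp had -0.01 ± 0.15, which turned to 0.0055 under upper-quartile scaling and went to -0.52 with the length trend removed.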

How the data were processed

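Paired 100-base stranded mRNA reads of the 12 libraries were aligned to mm9 with TopHat2 2.0.11 and counted per gene with HTSeq 0.6.1 by the authors, who deposited the raw counts used here. Columns were put in groups by the study's key to its column names. The same experiment number was taken as a pair because the study's key says that experiments with identical numbers are paired. As a check, libraries sharing a number deviated together from their group means, with Pearson correlations across genes of 0.101 to 0.644 in 18 pairs. In the 36 pairs of different numbers they ran from -0.654 to 0.295, with 5 over 0.1, so the ranges overlap. No 2 libraries agreed within counting noise. Spreadsheet conversion had turned 27 gene symbols into dates.

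Genes passing edgeR's filter on low counts (13745) were fitted with edgeR 4.0.16 in R 4.3.3, by the quasi-likelihood test with TMM scaling and experiment as a block, over 4 groups with 6 residual degrees of freedom. All 5 contrasts came from this fit, and the co-culture effects share their libraries with the difference between them. p-values were two-sided and adjusted by the Benjamini-Hochberg method over all genes tested; a call is an adjusted p under 0.05. Standard errors were the size of the effect over the square root of F. CPM used TMM-scaled library sizes. Counts of 16509710 to 22245224 per library set the precision. The steps were tested on simulated data.

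Genes named were all those called, up to 10 uncalled ones a direction by p that reached 2 in mean log2 CPM and kept 1 sign in the 3 experiments, first members of each of 24 lists, genes the study names and reference genes. Genes outside the rule are said to be picked afterwards. Members and lists were chosen with earlier results of these data known. Alternatives used other scalings, filters, thresholds, DESeq2 1.42.0, limma 3.58.1 and left-out libraries; removing length and GC trends was chosen after seeing the data. Lengths and promoters were matched by symbol to GENCODE M21 and RefSeq (GRCm38), a later build than the counts, and 99.2% of tested genes had a length.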

Additional observations from a re-analysis of the deposited data

Results flagged for a closer look

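The 11 genes whose co-culture effect differed between the genotypes by the test of the difference itself (edgeR, adjusted p under 0.05) are the results to look at again. Below 0 were Rtp4 (-3.05), Isg15 (-2.69), Ifit1 (-3.15), Trim47 (-2.34), Oasl2 (-3.19), Xaf1 (-1.97), I830012O16Rik (-2.24) and Oasl1 (-2.54), on the log2 scale. Above 0 were Mki67 (1.64), Ggta1 (1.93) and Ticrr (1.02). Groups of 3 are too small for a test of single outlying libraries.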

How the results depend on the processing

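The 3 genes higher and 8 lower were sensitive to the model and to single experiments, and causes were not tested. Without the replicate block that pairs libraries by experiment, 0 were higher and 5 lower. Higher and lower calls were 31 and 18 with no filter, 205 and 70 with DESeq2 and the block, 9 and 16 with DESeq2 without it, 1 and 5 with limma voom, 0 and 5 with the length trend removed, and 0 and 4 with length and GC trends removed. They were 0 and 4 at an adjusted p under 0.01 and 20 and 15 under 0.1, and library size alone gave 5 lower. Leaving out a library or an experiment gave 0 to 105 higher and 1 to 58 lower: 105 and 58 without 17_9, 0 and 2 without 25_9, 0 and 1 without 1_10, and 9 and 9 without the p53-/- library alone of 25_9. All 11 genes were among the calls of DESeq2 with the block and of the fit without 17_9. The same removals gave 2144 to 3909 genes higher and 1658 to 3913 lower in p53+/+ co-culture and 1826 to 3512 lower in p53-/- co-culture, each lowest without 25_9. The interferon-response median ran from -0.98 to -0.57 and the mitosis median from 0.58 to 0.88. Differences near 0 changed sign: Cdkn1a ran from -0.038 to 1.57, Gfap from -0.082 to 0.31, Actb from -0.24 to 0.10 and Tbp from -0.12 to 0.11. Actb was 0.055 with the length trend removed and 0.054 with length and GC trends removed, and Tbp 0.0055 under upper-quartile scaling, 0.051 by library size alone, -0.52 with the length trend removed and -0.56 with length and GC trends removed. Genes at a few reads in p53+/+ NPCs alone limit the size of the interferon differences.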
